A study of Rattus norvegicus with 6 samples.

Results

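The genes described are those of the amino acid stress response, meaning Atf4 with the genes it acts on, and the cytosolic aminoacyl-tRNA synthetases. They were chosen by name from a list of 37 symbols: 33 of these occurred as rows of the deposited tables, out of 33294 gene symbols, and no measured value was used to choose them. The 33 members were 18 genes of the Atf4 pathway and 15 synthetases. All 33 passed the filter on low counts, which kept 17292 genes. The symbols Cars1, Eprs1, Gars1 and Kars1 were not row names. Rows named Cars, Eprs, Gars and Kars were, and their values stand beside those of the members without being counted among them.

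RNA-seq was done on the pituitary gland of 6 male Sprague-Dawley rats aged 11 weeks, 1 library per rat. The nicotine group was 3 offspring of dams that received nicotine tartrate at 6 mg/kg/day during pregnancy from an implanted osmotic mini-pump. The control group was 3 offspring of dams that received saline. Exposure was thus of the dam, and the offspring were studied as adults. By the study's methods the pump was made to run for longer than the time from implant to birth. Its removal is not described there, so whether delivery went on after birth is not known. How many dams or litters the rats came from is not given in the sources used here, so the p-values measure only the spread between these rats. The question was whether this exposure was followed by a difference in pituitary gene expression of the offspring.

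Amino acid shortage leaves tRNAs uncharged, which activates the kinase Gcn2. Gcn2 and the other kinases of its family phosphorylate the initiation factor eIF2, which slows translation in general but lets the Atf4 mRNA be translated. Atf4 protein then binds C/EBP-ATF response elements and switches on genes for amino acid synthesis, amino acid uptake, tRNA charging and, when stress lasts, cell death. Because Atf4 is set mainly by translation, its mRNA level is an incomplete measure of its activity. Aminoacyl-tRNA synthetases join each amino acid to its tRNA, and many of the cytosolic ones are Atf4 targets. Hormone-secreting pituitary cells carry a heavy load of protein synthesis and folding.

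The promoters of several members hold the core of the C/EBP-ATF response element, TGATGNAA, and these stretches are shown because Atf4 is known to act through this element. Promoters of 250 bases before to 50 bases after the gene start were taken from RefSeq (assembly GRCr8) and searched on both strands. They were found for 35 of the 37 listed symbols, and Rars1 and Gars1 had no entry. Each line gives 60 bases before the gene start, 5′ to 3′ on the gene's own strand, with the match in capitals. All the matches shown read on the opposite strand, so the capitals are the reverse complement of the core.
Nupr1, chr1:190645923-190645982, minus strand: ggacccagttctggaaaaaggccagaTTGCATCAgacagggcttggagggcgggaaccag
Trib3, chr3:161275534-161275593, minus strand: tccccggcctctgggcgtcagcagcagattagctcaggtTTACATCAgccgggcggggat
Chac1, chr3:126795938-126795997, plus strand: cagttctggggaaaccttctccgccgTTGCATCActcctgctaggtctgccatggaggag
Aars1, chr19:55908344-55908403, plus strand: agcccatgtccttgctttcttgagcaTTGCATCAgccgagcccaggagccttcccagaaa
Iars1, chr17:15193653-15193712, minus strand: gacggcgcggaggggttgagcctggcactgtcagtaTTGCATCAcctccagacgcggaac
Mars1, chr7:65023754-65023813, minus strand: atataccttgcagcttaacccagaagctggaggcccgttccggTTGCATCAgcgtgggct
Tars1, chr2:62114803-62114862, minus strand: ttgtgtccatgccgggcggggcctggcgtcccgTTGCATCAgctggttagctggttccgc

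The first base of the match stood 55 bases before the gene start in Nupr1, 21 in Trib3, 167 in Chac1, 112 in Aars1, 24 in Iars1, 17 in Mars1 and 27 in Tars1. Aars1 had another match 10 bases after the start. The other holders among the listed symbols were Nars1, Cars1 and Yars1, which makes 10 of 35 (28.6%) with at least 1 match. The share was 3 of 18 (16.7%) for the Atf4 pathway and 7 of 17 (41.2%) for the synthetases. Of all 27457 promoters of the same length, 1048 (3.82%) held the core. Among the lists of other genes described below, 5 of 15 promoters of other Atf4 targets held it (33.3%). The eIF2 kinase list, the eIF2 subunit list and the endoplasmic reticulum stress list each had 1 of 8 (12.5%). Among the 16 promoters of mitochondrial synthetases found, 0 held it, and the remaining lists searched also had 0. These are matches of letters and not measured binding sites.

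The libraries held 28318383 to 85977002 counts, and the median total was 1.70 times as high in the nicotine group as in the control group. Levels are given as CPM (the count of a gene scaled to a common library total, here after TMM scaling), which do not take transcript length into account and so are compared between libraries and not between genes. The biological coefficient of variation was 23.6%. The gene list of anterior pituitary hormones summed to 113502 to 176248 CPM in the nicotine and 145853 to 159449 CPM in the control libraries, so the tissue label held in all 6. The testis germ cell list reached at most 0.148 CPM, with Tnp2, Ddx4 and Acrv1 at 0. In whole glands, fewer cells of a type and less RNA per cell cannot be told apart.

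None of the 33 members differed between the groups by the criteria used, which asked for a fold change above 1.5 besides an adjusted p under 0.1. Adjusted p-values of the members (edgeR's quasi-likelihood test, Benjamini-Hochberg over all 17292 genes) ran from 0.785 to 0.995. The same criteria were met by 0 of the 17292 genes (0%), with a smallest adjusted p of 0.103. DESeq2 called 62 of 17876 genes (0.347%) and 0 members, whose smallest adjusted p was 0.524. At an unadjusted p under 0.05 in edgeR there was 1 member, Nupr1, and it was lower after nicotine. Over all genes 520 were lower (3.01%) and 542 higher (3.13%) at that limit, 1062 in either direction (6.14%), so 1 of 33 was near the share among all genes. The levels of 3 members, Nupr1, Trib3 and Psph, did not overlap between the groups, all lower after nicotine. Over all genes, 888 were separated in that direction (5.14%), 1058 in the other (6.12%) and 1946 in either (11.3%), and 3 of 33 was below the last share. With library sizes alone, in place of TMM scaling, 2 members did not overlap, Nupr1 and, higher after nicotine, Wars1, so the separation of Trib3 and Psph depended on the scaling.

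For 29 of 33 members the difference between group means was smaller than the larger of the group SDs. The half-widths of the 95% intervals of the log2 fold change ran from 0.33 to 0.72. The coefficient of variation between rats was higher in the nicotine group for 22 of 33 members, with a median of 20.8% against 12.8% in the control group. The share of all genes with that direction was not computed, so the count is not read as a trait of the members. Over all genes tested, nicotine 2 was the highest library for 26.9% and the lowest for 26.8%. With 3 rats against 3, an exact two-sided permutation test cannot give a p below 0.1, the value it gave for Nupr1, Trib3 and Psph.

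**Figure D1:**
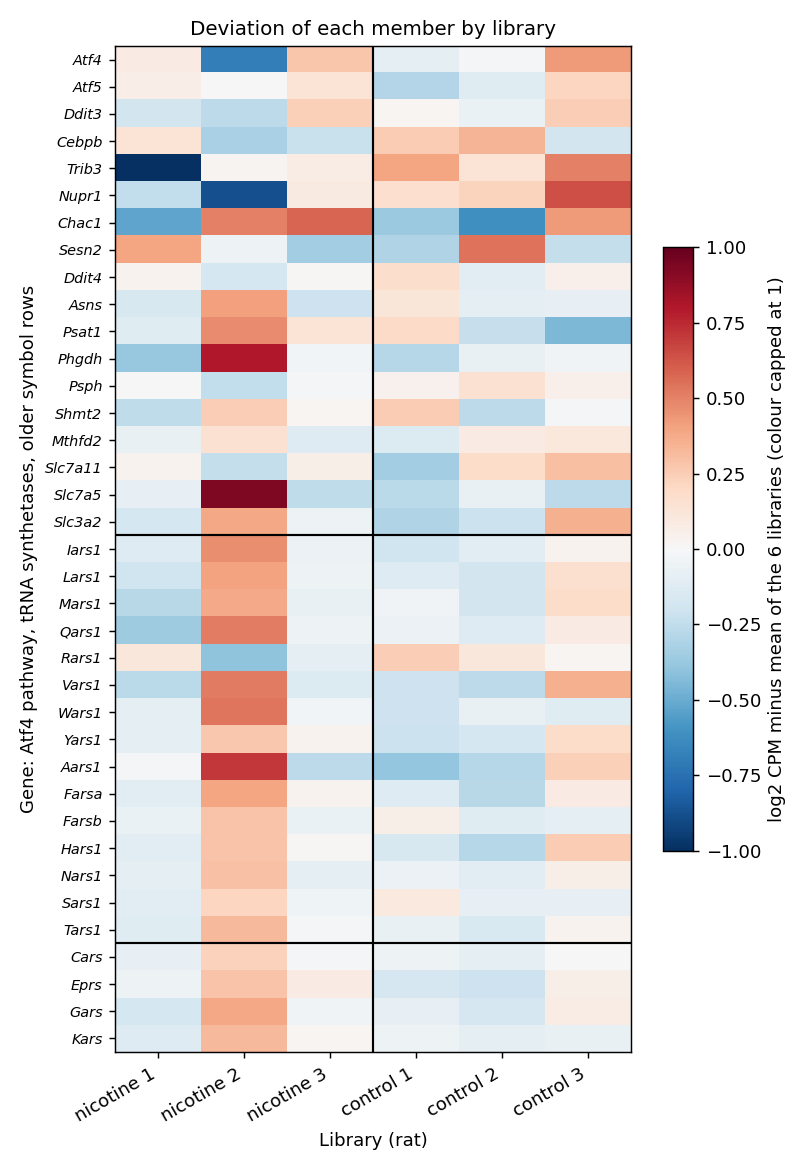
Deviation of each member, and of the 4 rows under older symbols, from its mean over the 6 libraries, as log2 CPM (colour, capped at 1) with genes as rows and libraries as columns. The column of nicotine 2 is red for 14 of the 15 synthetases and blue for Rars1, while among the transcription factors and regulators in the top rows it is lowest for 4 of 6.

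Transcription factors and regulators came first in the pathway. Atf4, the factor at its centre, was at 170.4, 99.4 and 194 CPM in nicotine 1, 2 and 3 and at 151, 159 and 216 CPM in control 1, 2 and 3. The groups overlapped, and nicotine 2 lay below every other library. The log2 fold change of Atf4 was -0.18 ± 0.24 (SE; edgeR adjusted p = 0.896). Without nicotine 2 it was 0.04.

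Nupr1, a small chromatin protein induced by stress, had 13.96, 9.02 and 17.7 CPM after nicotine and 18.7, 19.3 and 25.99 CPM in controls. Every nicotine library lay below every control library, but nicotine 3 and control 1 were close. Its log2 fold change was -0.66 ± 0.25 (SE), with a 95% interval of -1.21 to -0.11, an unadjusted p of 0.0237 and an adjusted p of 0.785 in edgeR. Without nicotine 2 the value was -0.44, and without control 3 it was -0.49, and in neither case was the unadjusted p under 0.05.

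Trib3, a pseudokinase that restrains Atf4 and Akt, had 1.85, 4.14 and 4.26 CPM after nicotine and 5.32, 4.46 and 5.76 CPM in controls. These levels rested on 87, 381 and 258 counts and on 144, 236 and 218 counts. Here nicotine 1 was the low library, and the other nicotine libraries lay just under control 2. The log2 fold change was -0.58 ± 0.31 (SE; 95% interval -1.27 to 0.11, edgeR adjusted p = 0.816). It was -0.30 without nicotine 1 and -0.74 without nicotine 2.

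Ddit3, the death-promoting factor CHOP, was at 30.1, 28.5 and 40.4 CPM after nicotine and 34.7, 32.7 and 40.7 CPM in controls. In both groups replicate 3 was the highest and the groups overlapped (log2 fold change -0.13 ± 0.18 SE). Cebpb, a partner of Atf4 on DNA, was at 20.6, 14.96 and 16.1 CPM against 22.4, 23.8 and 16.5 CPM. Only control 3 lay within the nicotine range, and the log2 fold change was -0.28 ± 0.20 (SE). Atf5, a related factor, was at 175, 167 and 183 CPM against 136, 154 and 194 CPM (log2 fold change 0.12 ± 0.17 SE). It was the only one of the 6 with a positive value.

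Over the 6 regulators the median log2 fold change was -0.23, and that of all genes tested was 0.01. Control 3 held the highest level for 5 of the 6 and nicotine 2 the lowest for 4. The median deviation of the 6 from their means was 0.34 on the log2 scale in control 3 and -0.30 in nicotine 2.

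Among the stress effectors, Chac1, which degrades glutathione, was at 10.7, 22.0 and 23.2 CPM after nicotine and 12.0, 10.2 and 20.9 CPM in controls. Its libraries fell into low and high values in both groups, and its SE was the widest of the members (log2 fold change 0.38 ± 0.33). Leaving out 1 library moved it to between 0.18, without control 2, and 0.76, without control 3. Sesn2, a leucine sensor upstream of mTORC1, was at 32.0, 23.4 and 19.1 CPM against 19.7, 35.3 and 20.6 CPM (log2 fold change -0.03 ± 0.26 SE). One library of each group was high. Ddit4, an inhibitor of mTORC1 also known as REDD1, ranged only from 66.0 to 83.9 CPM over the 6 libraries (log2 fold change -0.08 ± 0.15 SE).

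Among the enzymes, Phgdh, which starts serine synthesis, was at 29.6, 66.8 and 37.7 CPM after nicotine and 31.6, 36.6 and 37.6 CPM in controls. Nicotine 2 alone was set apart, at 1.77 times the next library. The log2 fold change of 0.34 ± 0.26 (SE) became -0.08 without it. Asns, asparagine synthetase and a textbook Atf4 target, was at 64.6, 95.9 and 62.6 CPM against 78.5, 67.6 and 68.2 CPM. Nicotine 2 was its highest library and the other nicotine libraries its lowest, so that the log2 fold change of 0.06 ± 0.19 (SE) became -0.18 without nicotine 2.

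Psat1, the next enzyme of serine synthesis, was at 31.0, 46.9 and 37.03 CPM after nicotine and 38.4, 28.8 and 24.6 CPM in controls (log2 fold change 0.33 ± 0.21 SE). Every nicotine library was above the control mean, but control 1 lay within the nicotine range. Psph, which completes the pathway, was at 18.7, 15.7 and 18.5 CPM against 19.2, 20.7 and 19.4 CPM. The groups did not overlap, yet nicotine 1 and control 1 were less than 1 CPM apart (log2 fold change -0.16 ± 0.16 SE, edgeR adjusted p = 0.856). Shmt2 and Mthfd2, mitochondrial enzymes of folate metabolism, had log2 fold changes of 0.01 ± 0.19 and -0.03 ± 0.18 (SE).

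Slc7a5, the light chain of the leucine carrier LAT1, had the largest positive log2 fold change of the members, 0.50 ± 0.27 (SE; 95% interval -0.10 to 1.10, edgeR adjusted p = 0.820). Its levels were 54.8, 110.4 and 48.7 CPM after nicotine and 48.1, 55.0 and 48.4 CPM in controls. Nicotine 2 was at 2.01 times the next library, and the other 5 libraries lay within 48.1 to 55.0 CPM. Without nicotine 2 the log2 fold change was 0.02. Slc3a2, the heavy chain that pairs with Slc7a5, was at 166, 246 and 181 CPM against 152, 162 and 239.8 CPM. Here nicotine 2 and control 3 were both high (log2 fold change 0.10 ± 0.22 SE). Slc7a11, the cystine carrier that uses the same heavy chain, ranged from 3.32 to 5.23 CPM (log2 fold change -0.13 ± 0.25 SE).

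**Figure D2:**
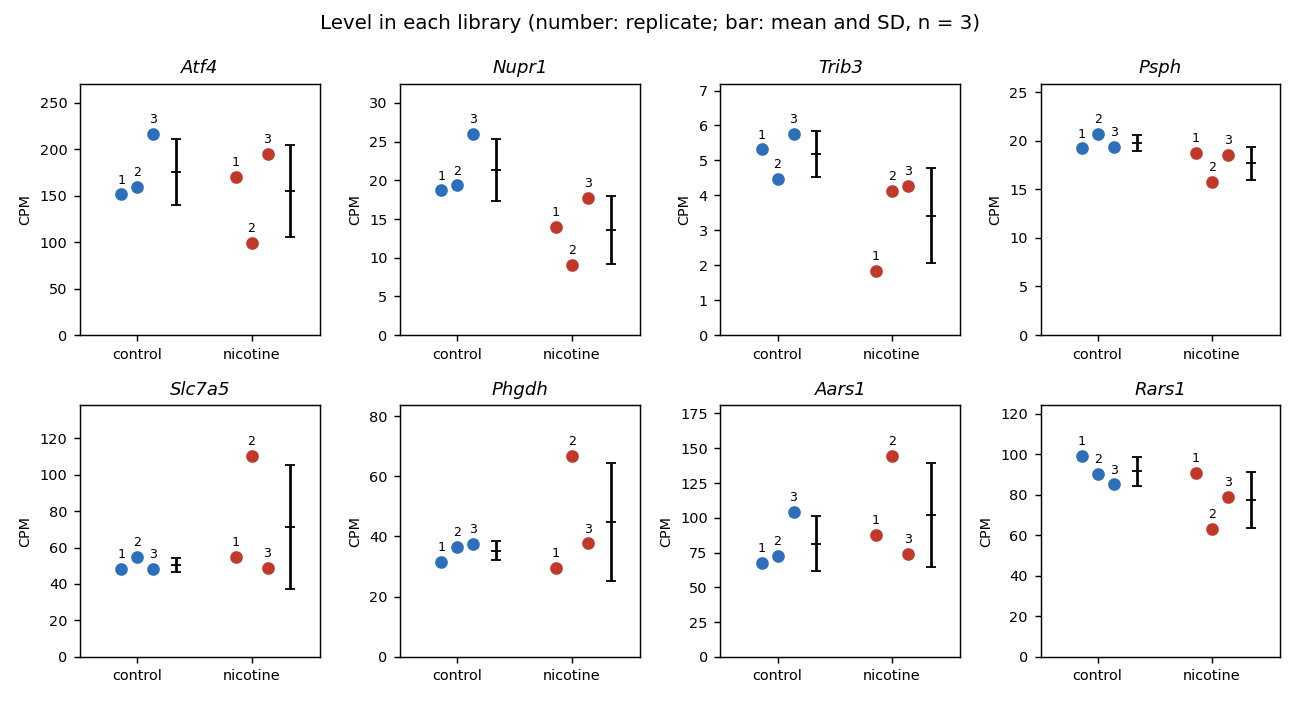
CPM of 8 members in each library, with the replicate number above each point and bars for the group mean and SD (n = 3). Nicotine 2 is the highest library for Slc7a5, Phgdh and Aars1 and the lowest for Atf4, Nupr1, Psph and Rars1.

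The cytosolic synthetases had small positive values in the group comparison, and these rested on 1 library. The log2 fold change was positive for 14 of 15 and negative for Rars1, with a median of 0.11. None passed an unadjusted p of 0.05, and adjusted p-values ran from 0.832 to 0.976. Without nicotine 2 the median was -0.03, with 3 positive and 12 negative values between -0.20 and 0.06.

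Nicotine 2 was the highest library for 14 of the 15 synthetases (93.3%) and the lowest for Rars1. It was the highest for 26.9% of all genes tested and the lowest for 26.8%. The counts of 14 and 1 were the same with RLE size factors, with library sizes alone and after every library was thinned to the smallest total. The level in nicotine 2 was 1.23 to 1.96 times the median of the other 5 libraries for the 14, and 0.70 times for Rars1. The median deviation of the 15 from their means was 0.38 on the log2 scale in nicotine 2 and between -0.15 and 0.08 in the other 5.

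Aars1, the synthetase for alanine, had the largest ratio of nicotine 2 to the median of the other libraries (1.96), at 87.7, 144.7 and 73.9 CPM after nicotine and 67.5, 72.4 and 104 CPM in controls. Its log2 fold change was 0.33 ± 0.26 (SE) with all libraries and -0.02 without nicotine 2. Wars1, for tryptophan, was at 24.0, 37.3 and 25.2 CPM against 22.3, 24.4 and 23.7 CPM (log2 fold change 0.30 ± 0.19 SE). Its other 5 libraries were close together, and nicotine 2 was at 1.48 times the next library, against 1.39 for Aars1. Qars1, for glutamine, was at 56.4, 103 and 69.7 CPM against 69.5, 66.1 and 76.7 CPM, so that nicotine 1 was the lowest and nicotine 2 the highest of the 6.

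Iars1, for isoleucine, was at 45.5, 68.5 and 47.7 CPM after nicotine and 43.2, 46.0 and 50.7 CPM in controls. Vars1, for valine, was at 31.9, 55.0 and 34.96 CPM against 33.2, 32.0 and 49.1 CPM, with control 3 the next highest. Control 3 was also next to nicotine 2 for Hars1, the synthetase for histidine, at 106 against 108 CPM. Rars1, for arginine, went the other way, at 90.6, 63.2 and 78.8 CPM against 99.2, 90.4 and 85.1 CPM (log2 fold change -0.24 ± 0.17 SE). Its nicotine 2 level was below all the others.

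The other 9 synthetases were Lars1, Mars1, Yars1, Farsa, Farsb, Nars1, Sars1, Tars1 and Hars1, with log2 fold changes of 0.04 to 0.23. Split by structural class, the median log2 fold change was 0.11 for the 8 class I enzymes and 0.12 for the 7 class II enzymes. Nicotine 2 was the highest library for 7 of the 8 and for all 7. The rows Cars, Eprs, Gars and Kars also had their highest level in nicotine 2. With them added, nicotine 2 was the highest for 18 of 19 and the median log2 fold change was 0.12.

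**Figure D3:**
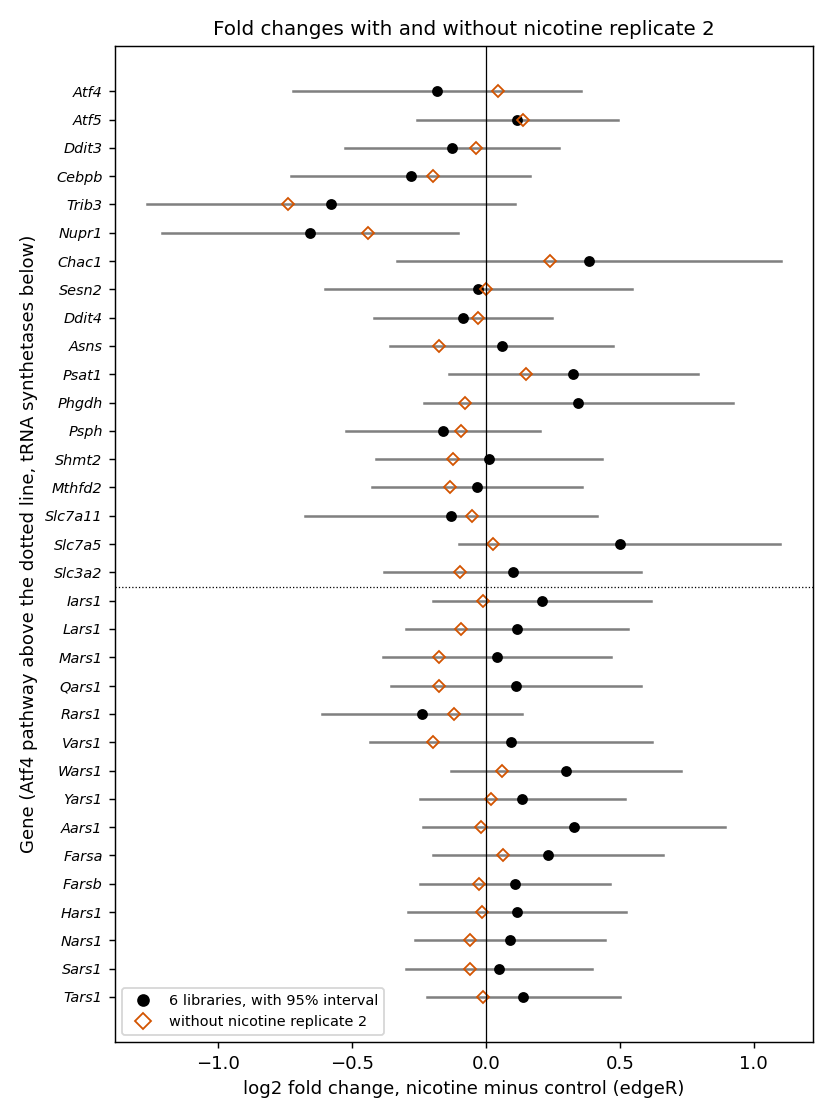
Log2 fold change of each member, nicotine minus control, by edgeR with all 6 libraries (black, with 95% interval) and without nicotine replicate 2 (open diamonds). Only the interval of Nupr1 lies apart from 0, and 12 of 15 synthetases are negative once nicotine 2 is left out.

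Nicotine 2 stood apart in other ways. It was the most deeply sequenced library, and its mean distance to the others was 90.8, against 72.0 to 80.7 for the other 5. Its summed CPM was the lowest of the 6 for the erythroid list, at 3082 against 4809 to 16234, and for the fibroblast list, at 287 against 423 to 784. It was also the lowest for macrophage genes, at 106 against 113 to 254. It was the highest for posterior lobe and neural genes, at 467 against 262 to 336. Their part in the synthetase levels was not tested.

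Summed markers of other cells were also read by group, and of these lists only the fibroblast sums did not overlap between the groups. The erythroid list summed to 4809, 3082 and 9707 CPM after nicotine and 8014, 10891 and 16234 CPM in controls. Within each group this was the order of the libraries for Nupr1, and also for Atf4, Atf5 and Slc7a11, whose groups overlapped. At an unadjusted p under 0.05, 5 of 6 erythroid and all 6 fibroblast genes were lower after nicotine, beside 3.01% of all genes. The fibroblast list summed to 287 to 501 CPM against 578 to 784 CPM. Neutrophil genes summed to 20.2 to 22.5 CPM against 6.45 to 132 CPM, and 5 of 5 tested were lower at that limit. Endothelial genes summed to 169 to 277 CPM against 139 to 185 CPM, and smooth muscle genes to 38.6 to 172 CPM against 31.4 to 49.1 CPM. Higher at that limit were 3 of 6 endothelial and 3 of 6 smooth muscle genes, beside 3.13% of all genes. Pituitary cell identity genes summed to 5744 to 7086 CPM against 5557 to 5827 CPM, and 1 of 10 was higher. Of the other lists, 3 of 7 posterior lobe and neural and 1 of 7 hormone genes were higher, and 2 of 6 macrophage genes lower. Among the nicotine libraries the fibroblast and macrophage sums also had the order of Nupr1, and the neutrophil sums did not. None of these sums had it among the control libraries. How many of all genes share that order was not counted. The part of these cells in the level of Nupr1 was not tested.

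The other genes of the pathway were read from lists. Of 8 genes for the eIF2 kinases, their regulators and the phosphatase subunits that reverse them, 0 had an unadjusted p under 0.05. Eif2ak4, which encodes Gcn2, had a log2 fold change of 0.02 ± 0.17 (SE). Of the 8 subunits of eIF2 and its exchange factor eIF2B, 0 passed that limit. The groups did not overlap for 1 of them, Eif2b4, which was higher after nicotine, beside 6.12% of all genes separated in that direction. Some genes of other lists were also separated without passing that limit. Of 10 other serine and folate enzymes 0 passed.

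Of 21 other Atf4 targets tested, 3 were lower and 0 higher at an unadjusted p under 0.05, with a median log2 fold change of -0.09. The shares over all genes were 3.01% and 3.13%, as given above for that limit, and they also stand beside the counts of 1 in the lists that follow. Slc38a2, a neutral amino acid carrier induced by starvation, was at 45.7, 59.99 and 54.3 CPM after nicotine and 61.5, 87.2 and 73.3 CPM in controls. The groups did not overlap, though nicotine 2 and control 1 nearly met (log2 fold change -0.47 ± 0.18 SE, edgeR adjusted p = 0.785). Slc43a1, a carrier of large neutral amino acids, was at 0.488, 0.597 and 0.545 CPM against 1.66, 0.832 and 1.11 CPM. All its nicotine libraries lay below the controls, at low levels (log2 fold change -1.07 ± 0.37 SE, edgeR adjusted p = 0.760). Atf3, a stress-induced repressor, overlapped between groups (log2 fold change -0.95 ± 0.42 SE, edgeR adjusted p = 0.806). None of these passed the adjusted limit.

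Pycr1, of proline synthesis, showed the pattern of Slc7a5 and Phgdh and was singled out after its values were seen. It was at 45.3, 125.5 and 54.9 CPM after nicotine and 46.3, 49.7 and 43.9 CPM in controls. Nicotine 2 again stood far above the other 5 libraries, and the log2 fold change was 0.69 ± 0.32 (SE; edgeR adjusted p = 0.807).

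For the mitochondrial synthetases, nicotine 2 was the highest library for 8 of 16 (50%) and the lowest for 4 (25%), beside 26.9% and 26.8% of all genes tested. Their median deviation in nicotine 2 was 0.07 on the log2 scale, the highest of the 6 libraries, beside 0.38 for the cytosolic members. The difference between these sets was not tested. In the group comparison, 1 of 16 had an unadjusted p under 0.05. This was Aars2, for alanine, at 13.1, 14.6 and 12.9 CPM after nicotine and 8.05, 9.25 and 11.7 CPM in controls (log2 fold change 0.48 ± 0.20 SE, edgeR adjusted p = 0.806). Its groups did not overlap.

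**Figure D4:**
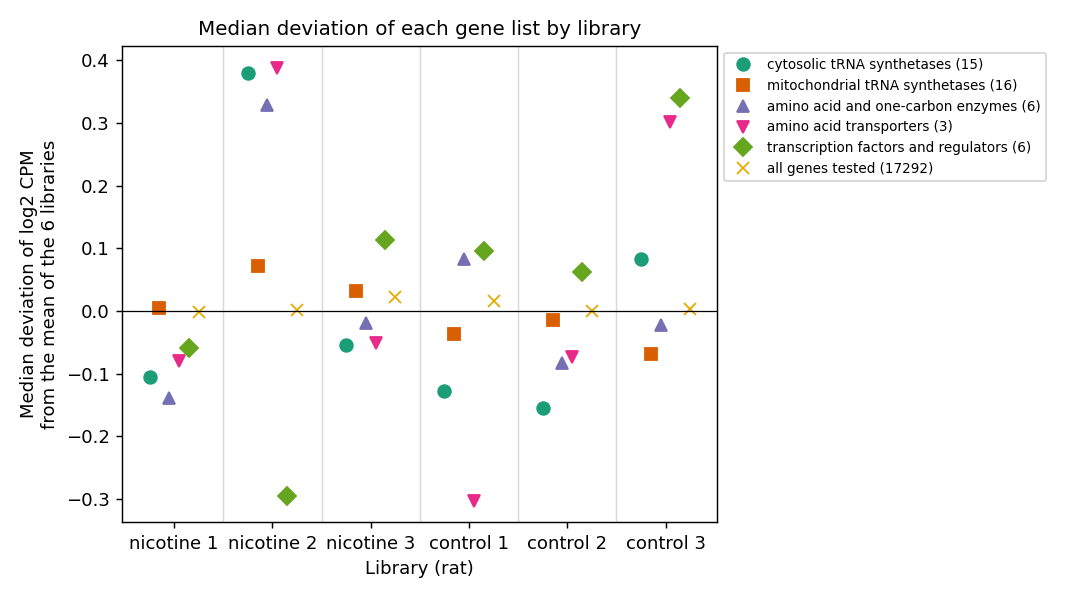
Median deviation of log2 CPM from the mean of the 6 libraries, for each gene list (symbols, with the number of genes) in each library. In nicotine 2 the cytosolic synthetases stand at 0.38, the amino acid enzymes at 0.33 and the transporters at 0.39, the mitochondrial synthetases at 0.07 and the regulators at -0.30.

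Of 12 genes that feed leucine and stress signals into mTORC1, 1 was higher at an unadjusted p under 0.05. This was Tsc2, an inhibitor of the pathway, with a log2 fold change of 0.38 ± 0.17 (SE; edgeR adjusted p = 0.807). Of 10 endoplasmic reticulum stress genes outside the members, 1 was lower, Dnajb9, a cochaperone of the folding machinery. It was at 500.1, 245 and 370.1 CPM after nicotine and 605, 548 and 527 CPM in controls. All nicotine libraries lay below the controls and nicotine 2 was again the lowest (log2 fold change -0.59 ± 0.24 SE, edgeR adjusted p = 0.806). Hspa5, the chaperone BiP, had a log2 fold change of -0.08 ± 0.24 (SE).

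The ranges of the members with and without a promoter match overlapped, though Nupr1 and Trib3 lay below every Atf4 pathway gene without one. Among the Atf4 pathway genes, the 3 with a match had log2 fold changes of -0.66 for Nupr1, -0.58 for Trib3 and 0.38 for Chac1, and the 15 without ran from -0.28 to 0.50. The 6 synthetase members with a match ran from 0.04 to 0.33, and the 8 without from 0.05 to 0.30. For these synthetases the nicotine 2 level was 1.29 to 1.96 times the median of the other libraries with a match and 1.23 to 1.65 times without. For the Atf4 pathway genes it was 0.48 to 1.84 times with a match and 0.58 to 2.27 times without. These differences were not tested.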

How the data were processed

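RNA-seq libraries from the pituitary of 3 nicotine and 3 control rats were grouped by the GEO labels. Per the labels and the study's methods, the authors demultiplexed with bcl2fastq (2.20.0.422), aligned paired stranded reads to rn7 with HISAT2 (2.1.0), and deposited raw counts per gene symbol from featureCounts, with DESeq2 (2.11.40.7) for their tests. Strand and multi-mapping settings, and whether reads or pairs were counted, are not given in the sources used here. The read numbers in the study's supplement are higher for the control than for the nicotine libraries, the opposite of the deposited totals. Taken in the listed order, its control numbers each lie somewhat above the deposited nicotine totals. Its nicotine numbers each lie somewhat above the deposited control totals. Whether the group labels were exchanged in 1 of the sources was not tested, and an exchange in GEO would reverse every direction given here. GEO's labels were followed, and the direction of every difference rests on them.

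Genes passing edgeR's filterByExpr were scaled by TMM and tested with edgeR's quasi-likelihood test (edgeR 4.0.16, R 4.3.3) between the groups without covariates, with Benjamini-Hochberg adjustment over all genes. A gene was called where its fold change was above 1.5 and its adjusted p under 0.1. The 95% intervals and SEs come from the F statistic. Totals of 28318383 to 85977002 counts set the precision, and intervals cover these rats only. CPM use the TMM-scaled totals, with a prior count of 2 on the log2 scale. Scripts were tested on simulated data. Alternatives were DESeq2 1.42.0, limma 3.58.1 (voom with sample quality weights), other scalings and filters, stricter thresholds, thinning, a replicate block and leaving out each library. The older-symbol rows were added as an alternative after seeing the data. All members were described. Of each pathway list, genes with an unadjusted p under 0.05 were named, up to 5 by smallest p. Pycr1, Eif2ak4, Eif2b4 and Hspa5 fall outside this rule, and their choice followed a look at the values. Besides these, a further gene read in the same way is not reported here. The members and lists were chosen with earlier results of these data known. Promoters came from RefSeq GRCr8.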

Additional observations from a re-analysis of the deposited data

How the results depend on the processing

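No member met the criteria for a call under any alternative run. Over all genes the 0 calls became 62 with DESeq2, 1 with library sizes alone, with limma voom and with thinned counts (RT1-CE16 each time), and 2 without the filter (RT1-CE16 and LOC310926). Leaving out 1 library gave 0 to 9 calls (9 without nicotine 3, 4 without control 2, 1 without nicotine 2). These genes were named after their values were seen. Same-numbered libraries did not deviate together (correlations 0.0264, -0.198 and -0.0785, and not every library correlated best with its own number). With the replicate block, 2 genes were called over all genes (LOC679963 and Car1), and no member turned direction. Leaving out 1 library gave 1 to 4 members at an unadjusted p under 0.05 (4 without nicotine 1: Nupr1, Chac1, Phgdh and Slc7a5; 1 without nicotine 2: Trib3; 1 without control 3: Chac1), beside 3.82% to 9.07% of all genes (9.07% without nicotine 1). It gave 4 to 11 members whose groups did not overlap (11 without control 3), beside 17.1% to 25.6% of all genes (23.3% without control 3). With library sizes alone that number was 2 (Nupr1 and Wars1, without Trib3 and Psph). When 1 library was left out, the median log2 fold change ran from -0.07 to 0.02 for the Atf4 pathway. For the synthetases it ran from -0.03 to 0.23. With library sizes alone, Sesn2 turned to 0.028 and Mthfd2 to 0.017, where the median of all genes was 0.06. With limma voom, Atf4 turned to 0.025, Asns to -0.090, Mars1 to -0.043, Qars1 to -0.049, Vars1 to -0.00014 and Sars1 to -0.012. Alternatives that left out 1 library turned the direction of 16 of 33 members without nicotine 2. Without any other library it was at most 4. Over those alternatives the log2 fold changes that turned ran from -0.38 to 0.044 (Atf4), -0.25 to 0.30 (Sesn2), -0.18 to 0.17 (Asns), -0.078 to 0.57 (Phgdh), -0.12 to 0.15 (Shmt2), -0.14 to 0.020 (Mthfd2), -0.10 to 0.33 (Slc3a2), -0.011 to 0.32 (Iars1), -0.092 to 0.24 (Lars1), -0.18 to 0.18 (Mars1), -0.18 to 0.29 (Qars1), -0.20 to 0.32 (Vars1), -0.020 to 0.55 (Aars1), -0.028 to 0.17 (Farsb), -0.015 to 0.30 (Hars1), -0.059 to 0.16 (Nars1), -0.061 to 0.11 (Sars1) and -0.013 to 0.23 (Tars1). The cause was not tested. Depth limits Trib3 and Slc7a11 most, with 87 to 381 and 90 to 331 counts per library.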

Other observations

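Ratios between members that act together were computed within each library, which removes its scaling. Slc7a5 over Slc3a2, the chains of the leucine carrier, was 0.329, 0.449 and 0.268 after nicotine and 0.316, 0.339 and 0.202 in controls. Nicotine 2 was the highest and control 3 the lowest, and the groups overlapped. Asns over Atf4 was 0.379, 0.965 and 0.322 after nicotine and 0.519, 0.424 and 0.315 in controls, so that nicotine 2 stood far above the other 5 libraries. Ddit3 over Atf4 was also highest in nicotine 2, at 0.286, against 0.177 to 0.230 in the others. Farsa over Farsb, the subunits of the phenylalanine synthetase, was steadier, at 0.338, 0.374 and 0.372 against 0.303, 0.310 and 0.390. These ratios are of CPM and depend on transcript length, so their absolute size has no meaning for the number of molecules.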
